A study of Equus caballus with 26 samples.

Results

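Acute phase and antiprotease genes were followed in the whole blood of horses before and after an endurance ride of 160 km. The group holds 9 genes, *SAA1*, *PTX3*, *SERPINA1*, *SERPINB1*, *PI3*, *SLPI*, *TIMP1*, *TIMP2* and *TGM3*, out of 24415 gene names on the array. The genes were chosen by their measured levels at T0 and T1 in both sets of horses, so their changes over the ride are given as a description with no p-value. All 9 were found, 5 under their own gene name and 4 otherwise: *PI3* is listed as LOC100056125, *SERPINA1* as SPI2 with the description alpha-1-antitrypsin, and *PTX3* and *SLPI* under other identifiers with the gene named in the description. Of the 9 genes, 7 were well above background on all 26 arrays, and all 9 were measured on enough arrays to enter each comparison. *PI3* was well above background on no T0 array, and *SAA1* on no T0 array of the experimental set. They entered those comparisons through T1 arrays only.

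The horses were Arabian or part-Arabian, and blood was drawn from the jugular vein into PAXgene tubes, which fix the RNA of all blood cells at sampling. The experimental set, labelled training, held 3 geldings that finished the ride, and each was measured before the ride (T0) and just after its end (T1). The validation set held 7 other horses at T0 (3 females and 4 geldings) and 13 further horses at T1 (3 females and 10 geldings), so that no validation horse was measured at both times. All validation horses of T1 had completed the ride, while most of those drawn at T0 for the study did not finish it, so that time and outcome cannot be told apart in this set. The labels name no other treatment, and the ages of the single horses were not used here. Each array hybridised the RNA of 1 sample in a single colour, and between 60.2% and 75.3% of its probes were well above background. A level is the log2 processed signal minus the 75th percentile of its array, so that 0 is the level of a probe at that percentile and levels of different genes are not set against each other. In blood, a higher level of a transcript cannot be told apart from a larger share of the cells that carry it.

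As background, the acute phase response is the change in blood proteins that follows infection, injury or heavy exertion, and most of these proteins are made by the liver under the control of cytokines. Serum amyloid A is the major acute phase protein of the horse, and the long pentraxin PTX3 is a pattern recognition protein that is stored in neutrophils and made by monocytes and endothelium. Antiproteases keep the proteases of leukocytes in check: alpha-1-antitrypsin (*SERPINA1*), the leukocyte elastase inhibitor (*SERPINB1*), elafin (*PI3*) and secretory leukocyte protease inhibitor (*SLPI*) block serine proteases such as neutrophil elastase, and the TIMPs block matrix metalloproteases. *TGM3* codes for a transglutaminase, an enzyme that joins proteins by bonds between glutamine and lysine, and elafin is a substrate of transglutaminases.

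Each gene was read by a 60-base probe, and the sequences of the probes that bear on what a level can mean are shown first. Positions are those of the array's header, which names the build EquCab1, and the files do not say which exon or UTR a probe lies in. The horse has several serum amyloid A genes, and the brightest *SAA1* probe (chr7:74139463-74139923, minus strand) was set beside the similar probe of the gene name *SAA* (chr7:74288857-74289346, plus strand). The *SAA* probe begins 1 base further on, and capitals mark the 5 of 59 shared positions at which the probes differ.

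SAA1: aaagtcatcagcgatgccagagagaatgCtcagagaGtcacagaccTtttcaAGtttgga

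SAA: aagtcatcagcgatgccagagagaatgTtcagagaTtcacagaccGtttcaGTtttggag

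Both 60-base probes cover far more than 60 bases of the genome (461 and 490), so that each lies across an intron. The *SERPINA1* probe (chr24:36527427-36527486, minus strand) was set beside the probe of LOC100065191 (chr24:36543860-36543919, minus strand), which lies 16373 bases away and has no symbol in the files. It was chosen after its values were seen, and capitals mark the 2 of 59 shared positions that differ.

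SERPINA1: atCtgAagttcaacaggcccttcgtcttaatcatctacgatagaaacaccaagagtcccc

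LOC100065191: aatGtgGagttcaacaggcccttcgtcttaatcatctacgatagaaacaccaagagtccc

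Probes this alike cannot be taken to tell the transcripts of both genes of a pair apart. The *SERPINA1* level may thus hold more than a single gene, and the *SAA1* level may likewise hold *SAA* transcripts, neither of which was tested. Elafin is known for repeats by which transglutaminases attach it to other proteins, and the *PI3* probe (chr22:34298897-34298956, plus strand) is shown because it holds a repeat. Capitals mark 2 nearly identical copies of a 16-base unit.

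PI3: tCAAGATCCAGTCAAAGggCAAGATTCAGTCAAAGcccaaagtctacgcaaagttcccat

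The *SLPI* probe (chr22:34376723-34376782, minus strand) lies 77766 bases from that of *PI3*, and both genes belong to the whey acidic protein family of inhibitors. The *TGM3* probe (chr22:20240246-20243098, minus strand) is shown because this gene had the largest change of the group, and its 60 bases cover 2853 bases of the genome, so that it reads spliced RNA.

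TGM3: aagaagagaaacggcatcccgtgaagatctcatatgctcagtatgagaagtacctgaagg

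Between T0 and T1, all 9 genes were higher on average in both sets of horses. In the experimental set 8 of the 9 passed the adjusted threshold of 0.05 in a limma fit that paired the arrays of a horse, and 6.28% of the 17439 gene names tested were called higher at T1 there. Of the validation comparison 9 of 9 passed, against 20.3% of 17342 gene names called higher. These counts include genes that met the filter only through T1 arrays, *PI3* in both sets and *SAA1* in the experimental set. With the filter on every array both genes were left out, and 7 of 7 passed in each set. The median log2 change of the 9 genes was 3.35 in the experimental set, where that of all gene names was 0.03, and 2.38 in the validation set, where that of all gene names was -0.07. Every T1 level lay above every T0 level for 9 of the 9 genes in the experimental set (17.8% of all gene names) and for 2 of the 9, *SERPINB1* and *SLPI*, in the validation set (1.45% of all gene names). As the genes were listed for these values, nothing further is read from the counts.

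**Figure D1:**
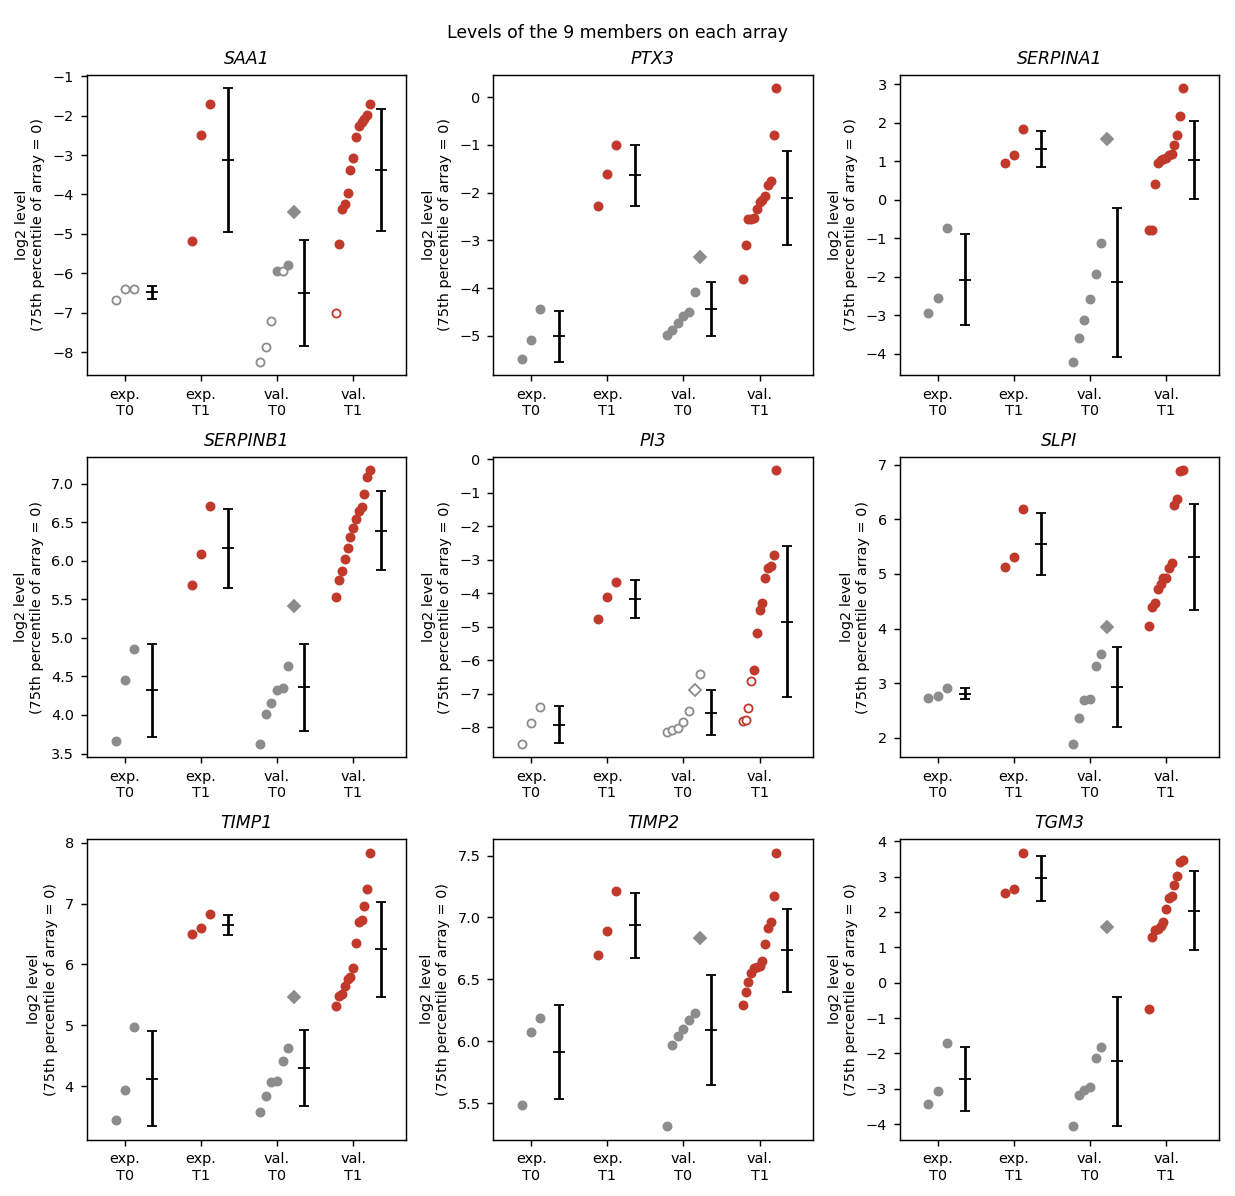
Log2 level (y axis, 0 is the 75th percentile of the array) of each of the 9 genes on each array, in experimental (exp.) and validation (val.) horses at T0 (grey) and T1 (red), ordered from low to high within a group. Open symbols are not well above background, the diamond is validation horse 47, and black bars give the mean ± SD. The T1 means sit above the T0 means for all genes, with *SERPINB1* and *SLPI* free of overlap in both sets. Horse 47 is the highest validation horse at T0 for all genes but *PI3*.

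Among the acute phase genes, *SAA1* was close to background before the ride. Its T0 levels in experimental horses 2, 32 and 41 were -6.39, -6.66 and -6.38, none well above background, and its T1 levels were -1.71, -2.49 and -5.17. Horse 41 thus had by far the lowest T1 level of these horses. The mean log2 change was 3.35 (SE 0.60), and measured against the detection limit *SAA1* was 8.93-fold higher at T1, an estimate and no lower limit. Validation horses had lowest, median and highest levels of -8.23, -5.94 and -4.44 at T0, where 3 of 7 were well above background, and -6.99, -3.07 and -1.70 at T1, where 12 of 13 were. Horses 1 and 7 lay within the T0 range at T1, and the other 11 of the 13 T1 horses lay above every T0 horse. The log2 change was 3.1 (SE 0.64). The 7 *SAA1* probes gave changes between 2.41 and 3.35 in the experimental set and between 1.71 and 3.1 in the validation set, and the brightest probe gave the top value of both.

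The size of the *SAA1* change depended on the processing of the scans. It was 1.03 in the experimental set, where the call was lost, and 0.89 in the validation set, where it was kept, after normexp background correction with quantile normalization. The experimental call was also lost without horse 2 or without horse 32.

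*SAA*, the other serum amyloid gene name and no member of the group, was bright enough to be measured on all arrays. Its levels in experimental horses 2, 32 and 41 went from -1.55, -2.85 and -1.46 to 2.65, 1.97 and 1.43, a log2 change of 3.97 (SE 0.41, adjusted p = 0.00197 in limma). In the validation set the change was 3.63 (SE 0.49, adjusted p = 1.33e-05 in limma), with a T0 range of -2.89 to 1.35 and a T1 range of 0.65 to 4.88. Only horse 1 at T1, with the lowest level, lay below the highest T0 horse, which was horse 47. Horse 41 had the lowest T1 level and the smallest difference, 2.89, of the experimental horses. These values come from the brighter *SAA* probe (chr7:74261275-74261334, minus strand), while the one shown above was above background on 25 arrays and gave changes of 3.90 and 3.38. The *SAA* probes lie on opposite strands, so that the name may hold more than a single gene, which was not tested. *SAA* and *SAA1* are thus not shown to be separate measurements.

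*PTX3* was low but well above background on every array. Horses 2, 32 and 41 had levels of -4.44, -5.09 and -5.49 at T0 and of -1.62, -2.28 and -1.01 at T1. For this gene horse 41 had the highest T1 level and the largest gain, 4.48 against 2.82 and 2.81. The log2 change was 3.37 (SE 0.41) in these horses and 2.33 (SE 0.38) in the validation set, whose levels (lowest, median, highest) were -4.99, -4.58 and -3.34 at T0 and -3.80, -2.19 and 0.19 at T1. The sets of levels overlapped through a pair of horses, 47 at T0 and 21 at T1, and 12 of 13 T1 horses exceeded all T0 horses. With normexp and quantile normalization the changes were 1.62 and 1.14, still past the threshold in both sets.

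Among the serine protease inhibitors, *SERPINA1* started from very different levels. Experimental horses 2, 32 and 41 had -2.93, -2.54 and -0.73 at T0 and 0.97, 1.17 and 1.85 at T1, so that horse 41 was the highest at both times. The log2 change was 3.40 (SE 0.36). Among validation horses the T0 levels ran from -4.20 over a median of -2.58 to 1.59, and the T1 levels from -0.79 over 1.09 to 2.90, a change of 3.17 (SE 0.60). Validation horse 47 had the highest T0 level, and only 3 of 13 T1 horses lay above it. Without that horse the change was 3.79. A second probe of this gene name, chr24:36511957-36512012, lies at lower coordinates on the same strand and gave changes of 3.60 and 4.11. LOC100065191 changed by 3.32 and 3.03, and its level followed that of *SERPINA1* over the 26 arrays with r = 0.996, a description that rests on arrays of both times.

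*SERPINB1* was bright, with narrow groups. Horses 2, 32 and 41 had T0 levels of 4.45, 3.66 and 4.85 and T1 levels of 6.71, 5.69 and 6.09, a log2 change of 1.84 (SE 0.34). Validation levels were 3.63, 4.32 and 5.42 (lowest, median, highest) at T0 and 5.53, 6.42 and 7.17 at T1, a change of 2.03 (SE 0.24), which had the second smallest SE of the group. No T0 horse reached the lowest T1 horse. Both *SERPINB1* probes gave the same picture, with changes of 1.84 and 1.83 in the experimental set and 2.03 and 2.13 in the validation set. The experimental call was lost without horse 2 or horse 32, with changes of 1.63 and 1.75, and kept without horse 41, with 2.14.

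*PI3* was not well above background on any of the 10 T0 arrays. Its T0 levels in horses 2, 32 and 41 were -7.41, -8.50 and -7.88, and at T1 they were -3.66, -4.78 and -4.10, all well above background. Against the detection limit the mean of *PI3* was 5.18-fold higher at T1. Validation horses were split at T1: 9 of 13 were well above background, while horses 1, 7, 21 and 46 were not and lay among the T0 horses. The levels there were -8.15, -7.85 and -6.42 at T0 and -7.82, -4.51 and -0.33 at T1 (lowest, median, highest). The validation change was 2.71 (SE 0.81), and the fold against the detection limit was 3.09. Neither fold is a lower limit. With normexp and quantile normalization the changes shrank to 0.48 and 0.58 and neither passed the threshold, and with scan day as a term the validation call was lost. The experimental call was also lost in the fit of all 26 arrays.

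*SLPI*, the relative of *PI3* on the same chromosome, was bright at both times. Its T0 levels in horses 2, 32 and 41 lay close together at 2.77, 2.73 and 2.92, and its T1 levels were 6.19, 5.31 and 5.13, a log2 change of 2.74 (SE 0.35). Among validation horses it ran from 1.89 over 2.72 to 4.03 at T0 and from 4.05 over 4.92 to 6.90 at T1. The groups did not overlap, by the narrow margin between horse 47 at T0 and horse 1 at T1. The validation change was 2.38 (SE 0.39).

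Of the metalloprotease inhibitors, *TIMP1*, which inhibits most matrix metalloproteases, showed the larger change. Horses 2, 32 and 41 went from 4.98, 3.46 and 3.95 to 6.82, 6.50 and 6.60, so that horses that differed at T0 ended at nearly the same level. The SD of the 3 horses was 0.78 at T0 and 0.16 at T1, and the log2 change was 2.51 (SE 0.35). Validation levels were 3.58, 4.08 and 5.47 at T0 and 5.32, 5.95 and 7.84 at T1 (lowest, median, highest), a change of 1.95 (SE 0.32). Their SD was 0.62 at T0 and 0.78 at T1, so that the narrowing was not seen in this set. Only 1 T1 horse, horse 24, lay below a T0 horse, and that T0 horse was 47. The 5 *TIMP1* probes differed little, with changes between 2.42 and 2.51 and between 1.92 and 1.97.

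*TIMP2*, which also takes part in the activation of a matrix metalloprotease at the cell surface, changed least. Its levels in horses 2, 32 and 41 were 6.19, 5.48 and 6.08 at T0 and 6.89, 7.22 and 6.70 at T1. The mean difference of 1.02 (SE 0.35) did not pass the threshold over all genes in the experimental set, and it was 0.66 without horse 32, which had the largest difference. Validation levels were 5.31, 6.09 and 6.83 at T0 and 6.29, 6.61 and 7.52 at T1, a change of 0.64 (SE 0.18) that passed the threshold, and 4 of 13 T1 horses lay above every T0 horse. All 7 *TIMP2* probes were well above background on all 26 arrays, and their changes lay between 0.95 and 1.07 in the experimental set and between 0.49 and 0.67 in the validation set.

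*TGM3* had the largest measured change of the 9 genes in both sets. Horses 2, 32 and 41 had levels of -1.70, -3.05 and -3.43 at T0 and of 3.68, 2.64 and 2.54 at T1, with differences of 5.38, 5.69 and 5.96. The log2 change of 5.68 (SE 0.32), a 51.2-fold difference with a 95% interval of 31.0 to 84.4, was in place 9 of 17439 gene names ordered by change. In the validation set levels ran from -4.05 over -2.96 to 1.58 at T0 and from -0.74 over 2.09 to 3.47 at T1. The log2 change of 4.26 (SE 0.60) was in place 16 of 17342, and it was 4.90 without horse 47. Horse 47 at T0 stood above 4 of the 13 T1 horses. The size of the *TGM3* change also depended on the processing. With normexp and quantile normalization it was 4.57 in the experimental and 3.33 in the validation set, and with the series values 4.77 and 3.48. All of these passed the threshold, but both experimental values lay below the 95% interval given above, whose lower end was 4.96 in log2 units.

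**Figure D2:**
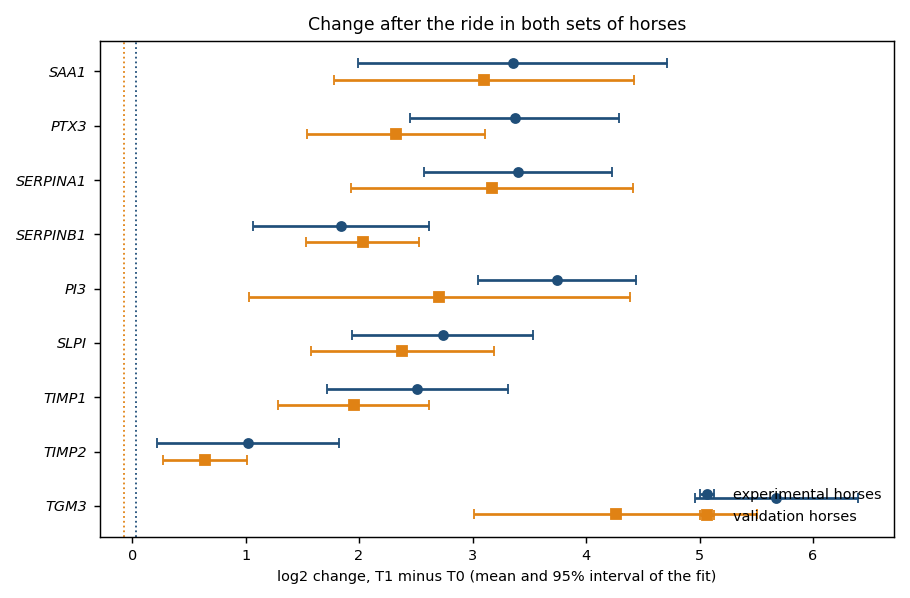
Log2 change from T0 to T1 (x axis) of each gene (y axis) with the 95% interval of the limma fit, in experimental (circles) and validation horses (squares), and dotted lines at the median change of all gene names in each set. *PI3* was not well above background at T0 in either set, nor *SAA1* at T0 in the experimental set. *TGM3* has the highest change in both sets and *TIMP2* the lowest.

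Validation horse 47 stood apart before the ride. It had the highest T0 level of its group for 8 of the 9 genes, all but *PI3*, and its *TGM3* level of 1.58 was far from the next T0 horse at -1.83. Its neutrophil score, the mean level of 12 neutrophil marker genes, was 3.07, inside the T1 range of 2.62 to 3.47, while the other 6 T0 horses had scores between 1.12 and 1.54. Its monocyte score of 2.29 was likewise inside the T1 range of 2.18 to 3.57 and above the other T0 horses, at 0.10 to 0.87. The part of these cells in its levels was not tested. All 9 validation calls were kept without this horse.

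At T1, horse 62 was the highest of the 13 validation horses for 5 genes, *PTX3*, *SERPINB1*, *PI3*, *SLPI* and *TIMP1*, and the lowest for *TIMP2*. Horse 1 was the lowest for 3 genes, *SAA1*, *SERPINA1* and *SLPI*, and among the lowest 3 for 7 of the 9. Horse 21 was the lowest for *PTX3* and *TGM3* and the highest for *TIMP2*. The T1 arrays of horses 21 and 62 had the lowest shares of probes well above background of all arrays, 60.2% and 60.6%, whose part in these levels was not tested. How often a horse was highest or lowest over all gene names was not counted.

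Whether the genes varied together between horses was tested within the 13 validation horses of T1. The genes had been chosen by their levels, those of these arrays among them, and with earlier results of these data known. Of the 36 pairs, 29 had a positive Pearson's r, the median r was 0.41, and 6 pairs passed an adjusted threshold of 0.05 by permutation over the horses. By Spearman's rho 2 pairs passed. Pairs of other gene names were not counted, so these counts are not read as a trait of the group. The pairs that passed by both were *SLPI* with *TIMP1* (r = 0.85, adjusted permutation p = 0.00576; rho = 0.84, adjusted permutation p = 0.0202) and *PI3* with *SLPI* (r = 0.84, adjusted permutation p = 0.00504; rho = 0.82, adjusted permutation p = 0.0202). After the 2 horses with the most extreme level of the first gene were left out, r was 0.70 for *SLPI* with *TIMP1* and 0.83 for *PI3* with *SLPI*.

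The other 4 pairs passed by r only. They were *PI3* with *TIMP1* (r = 0.77, adjusted permutation p = 0.0215; rho = 0.74, adjusted permutation p = 0.0517), *PTX3* with *SLPI* (r = 0.74, adjusted permutation p = 0.0215; rho = 0.73, adjusted permutation p = 0.0517), *SERPINB1* with *TIMP1* (r = 0.74, adjusted permutation p = 0.031; rho = 0.73, adjusted permutation p = 0.0517) and *PTX3* with *PI3* (r = 0.71, adjusted permutation p = 0.0348; rho = 0.57, adjusted permutation p = 0.136). Without their 2 most extreme horses these pairs had r of 0.64, 0.76, 0.61 and 0.48. *PI3* levels near background on 4 arrays enter these values. Of the 7 pairs with a negative r, all held *TIMP2*, the lowest being *PTX3* with *TIMP2* at r = -0.54 (adjusted permutation p = 0.142; rho = -0.23, adjusted permutation p = 0.644), which was 0.11 without 2 horses. *SAA1* and *PTX3*, the acute phase genes, had r = 0.35 (adjusted permutation p = 0.354; rho = 0.15, adjusted permutation p = 0.755).

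**Figure D3:**
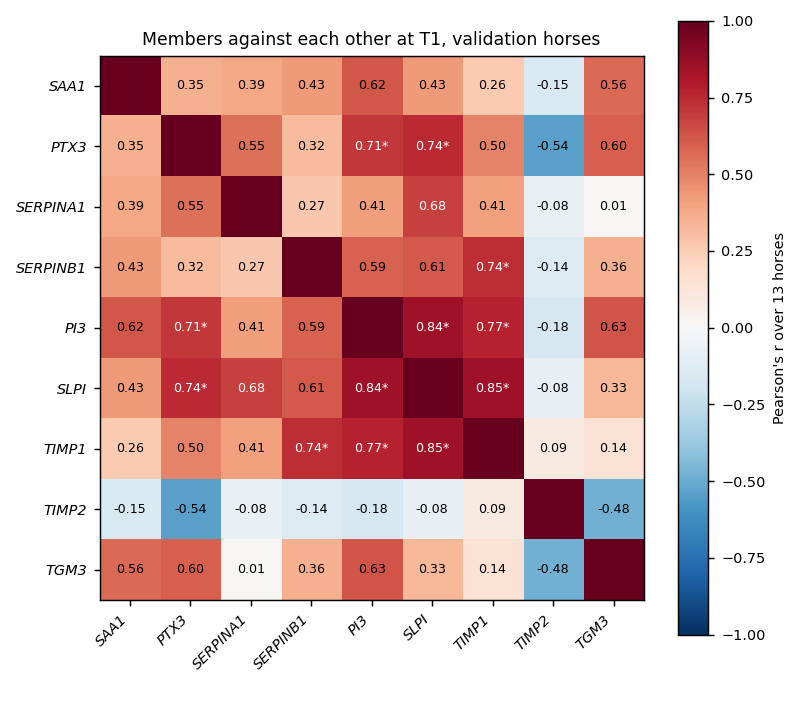
Pearson's r between the levels of each pair of genes over the 13 validation horses at T1, coloured from -1 (blue) to 1 (red), with a star where the permutation p adjusted over 36 pairs was under 0.05. *SLPI*, *PI3* and *TIMP1* form 3 starred pairs, and all negative values lie in the row and column of *TIMP2*.

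The levels were also set against the neutrophil score of the same 13 horses. None of the 9 genes passed the adjusted threshold, by r or by rho. The highest value was that of *PI3* (r = 0.65, permutation p = 0.0173, adjusted 0.156; rho = 0.66, permutation p = 0.0174, adjusted 0.0735), followed by *TGM3* (r = 0.56, permutation p = 0.0383, adjusted 0.172; rho = 0.63, permutation p = 0.0245, adjusted 0.0735). *SLPI* came next (r = 0.50, permutation p = 0.0872, adjusted 0.238; rho = 0.65, permutation p = 0.0192, adjusted 0.0735), and *SERPINA1* was the lowest (r = 0.12, permutation p = 0.701, adjusted 0.701; rho = 0.32, permutation p = 0.281, adjusted 0.317). Without horses 4 and 55, whose scores were farthest from the median, r was 0.61 for *PI3*, 0.48 for *TGM3*, 0.47 for *SLPI* and 0.51 for *SERPINA1*. The score itself spanned only 2.62 to 3.47 at T1, and these tests do not show that the genes vary apart from neutrophils.

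**Figure D4:**
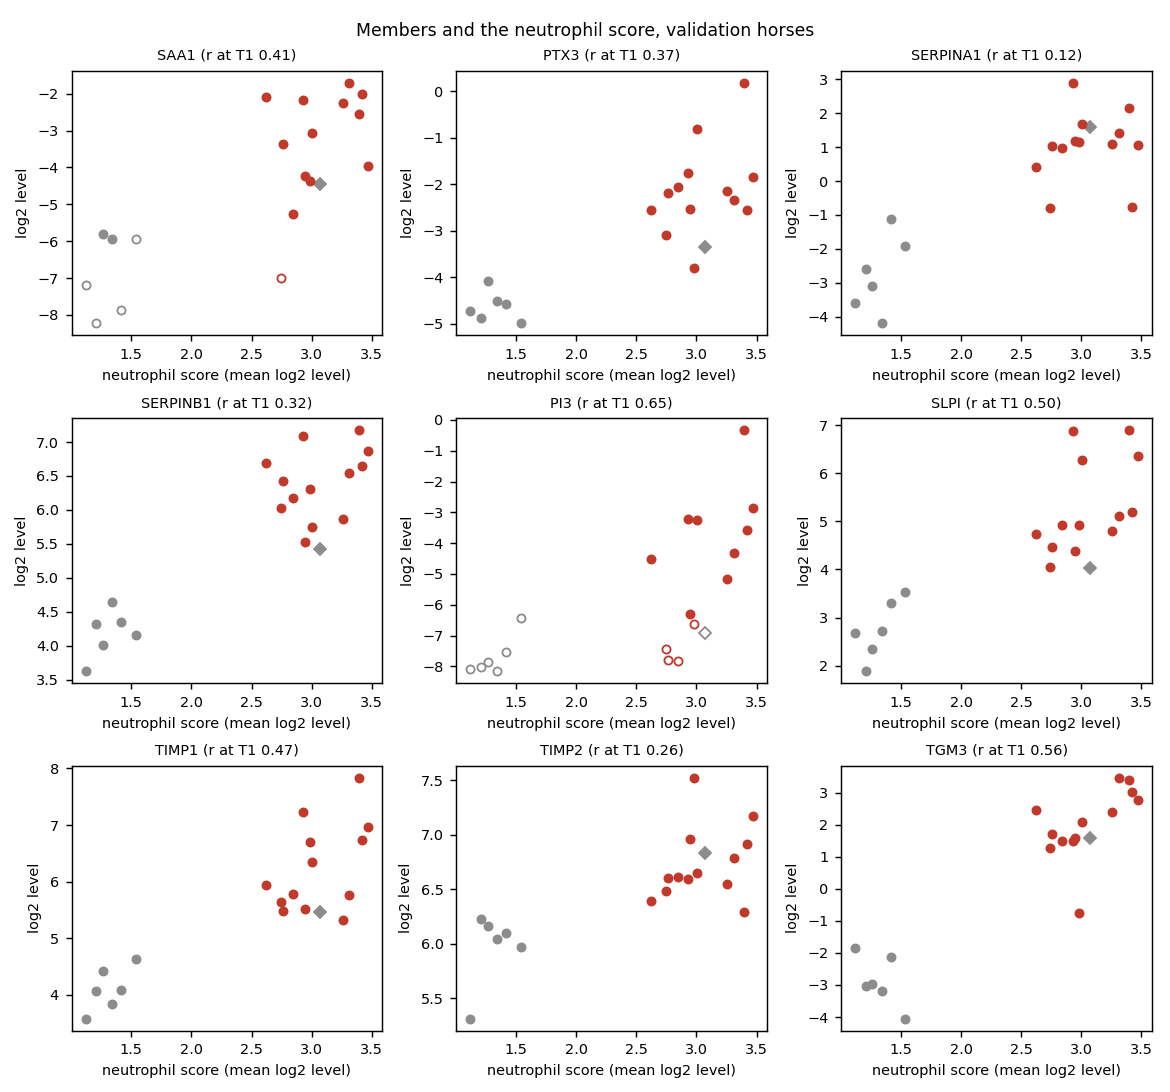
Log2 level of each gene (y axis) against the neutrophil score (x axis, mean log2 level of 12 marker genes) in validation horses at T0 (grey) and T1 (red), with Pearson's r over the 13 T1 horses in each title. Open symbols are not well above background, and the diamond, horse 47 at T0, has the score of a T1 horse.

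The change itself was compared between the sets in a joint limma model of the 26 arrays, in which horse entered as a random effect. No gene of the group passed: the validation change minus the experimental change was lower than 0 for 8 of the 9 genes, each adjusted p was 1.0 in limma, and 0.0% of 19263 gene names passed. Only 156 gene names had an unadjusted p under 0.05, which is fewer than evenly spread p-values would give. The reason was not tested, and the lack of calls is not read as likeness of the sets. The largest difference was that of *TGM3*, -1.42 (95% interval -3.86 to 1.03), followed by *PTX3* at -1.04 (-2.60 to 0.51) and *PI3* at -1.04 (-4.24 to 2.17). For *SERPINB1* it was 0.19 (-0.85 to 1.23). For *SAA1*, *SERPINA1*, *PI3*, *SLPI* and *TGM3* the interval held differences of more than 1 log2 unit in either direction, so that with 3 experimental horses the changes are not shown to be alike.

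Females and geldings were compared at T1 in the validation set, with 3 and 10 horses. None of the 9 genes passed, with adjusted p between 0.626 and 0.995 in limma, and 0.0388% of 18054 gene names did. *SAA1* had the largest difference, -1.85 in females minus geldings (95% interval -3.58 to -0.12, unadjusted p = 0.0377, adjusted p = 0.626 in limma). The 3 females had *SAA1* levels of -6.99, -5.26 and -2.16, so that they included both the lowest horse and a horse above the geldings' mean of -2.96. The difference was -3.17 without female 19. *PI3* followed at -1.68 (-4.47 to 1.11), and *SERPINA1*, *SERPINB1*, *SLPI* and *TIMP1* had differences between -0.04 and 0.05, with an interval of -0.67 to 0.76 for *SERPINB1*, the narrowest of these 4. These near-zero differences rested on single females: without female 19 they were -0.96 for *SERPINA1*, -0.29 for *SERPINB1*, -0.83 for *SLPI* and -0.55 for *TIMP1*, and without female 1 they were 0.89, 0.25, 0.59 and 0.25. *PI3* was at -3.15 without female 19.

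In the validation set 5 of the 7 scan days held both times and 2 held T1 horses only, and of the 15 slides 3 held both times. Of the 9 genes, 8 were higher at T1 within each of the 5 days. *PI3* was higher within 4 and differed by -0.50 on the other day, whose only T1 horse was 46. The within-day differences of *TGM3* ran from 1.09 to 5.52 and those of *SERPINB1* from 1.99 to 2.68. Within the 3 slides that held both times all genes were higher at T1 with the exception of *TIMP2* at -0.24 and *TGM3* at -0.08 on the slide whose T0 horse was 47. In the experimental set the arrays of a horse lay on different slides and were scanned on different days, and within the 2 scan days that held both times all 9 genes were higher at T1. A fit with both horse and scan day left no residual degrees of freedom among these 6 arrays.

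For each gene, the 3 gene names with a symbol whose levels were most like it over the 26 arrays were taken from 12110 candidates. These r values hold the difference between T0 and T1 and are a description. *SERPINB1* had the closest ones, with both entries of the decoy interleukin-1 receptor, *IL1R2* (r = 0.97) and *IL-1RII* (r = 0.97), and *ALOX5AP*, the protein that activates 5-lipoxygenase for leukotriene synthesis (r = 0.96). *ALOX5AP* was also among the closest to *SLPI* (r = 0.94), with *PAIP1* (0.94) and *IL22RA2* (0.94), and to *TIMP1* (r = 0.93), with the purinergic receptor *P2RY13* (0.94) and *ILT11A* (0.94). *TGM3* had *RAB31* (r = 0.96), the transcription factor *ETS2* (0.96) and the mitochondrial cyclophilin *PPIF* (0.95).

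*PTX3* had *IL22RA2*, the soluble receptor that binds interleukin-22 (r = 0.94), *COL15A1* (0.93) and *SEMA3E* (0.93). For *PI3* they were *ATP6V1E1* (r = 0.88), the granule protein *LCN2* (0.87) and *PLAGL1* (0.87), and for *SAA1* the pentose phosphate enzyme *PGD* (r = 0.87), the scavenger receptor *MARCO* (0.87) and *GAPVD1* (0.87). *SERPINA1* had *LACE1*, *MAP3K4* and *ATP11B* (each 0.91), and *TIMP2* had *WDR1* (0.91), *LRRFIP1* (0.91) and *CDK9* (0.90), the lowest values beside those of *SAA1* and *PI3*.

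Other genes of the same systems were taken from 6 lists and tested in the same fits, in which 4.03% of all gene names were lower at T1 in the experimental set and 23.9% in the validation set, beside the 6.28% and 20.3% that were higher. Of 14 other acute phase proteins tested, 4 were higher and 0 lower in the experimental set (median log2 change 0.33), and 6 were higher and 2 lower in the validation set (median 0.29). *HP*, the haemoglobin scavenger haptoglobin, rose by 5.95 (SE 0.89, adjusted p = 3.13e-05 in limma) in the validation set and by 5.48 (SE 0.47, adjusted p = 0.00103 in limma) in the experimental set. *LCN2*, the iron-binding protein lipocalin 2, rose by 2.12 (SE 0.50, adjusted p = 0.00177 in limma) and 2.36 (SE 0.40, adjusted p = 0.0127 in limma). The complement factor *CFB* was lower in the validation set by -0.68 (SE 0.25, adjusted p = 0.0302 in limma) and did not pass in the experimental set (-0.57, SE 0.32, adjusted p = 0.26 in limma).

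Among 21 other protease inhibitors, 2 were higher and 4 lower in the experimental set (median 0.02), and 3 were higher and 5 lower in the validation set (median 0.03). *SERPINC1*, antithrombin, rose in both sets, by 1.72 (SE 0.23, adjusted p = 1.33e-05 in limma) in the validation set and by 2.27 (SE 0.38, adjusted p = 0.0112 in limma) in the experimental set, as did *SERPINA10*, an inhibitor of the activated coagulation factor X (0.56 and 1.23). *SERPINE2* rose by 1.01 in the validation set and did not pass in the experimental set (1.13, SE 0.37, adjusted p = 0.0843 in limma). Against this, *SERPINI1* changed by -2.07 and -1.78, *SERPINB10* by -1.57 and -2.07 and *SERPINB6*, a close relative of *SERPINB1*, by -1.43 and -1.29 in the validation and the experimental set, and all 3 passed in both.

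Of the serine proteases of granules and plasma, neutrophil elastase, proteinase 3 and cathepsin G were not among the 6 tested. Of these 6, 1 was higher and 3 lower in the experimental set (median -1.17) and 1 higher and 4 lower in the validation set (median -0.96). *PLAU*, the urokinase plasminogen activator, rose by 1.63 (validation) and 1.78 (experimental), whereas the granzymes of cytotoxic lymphocytes fell, with -2.30 and -2.73 for *GZMB*, -1.21 and -1.38 for *GZMK* and -0.99 and -1.67 for *GZMA*, all past the threshold in both sets. Of the matrix metalloproteases and ADAMs, 4 of 15 were higher and 1 lower in the experimental set (median 0.57), and 8 of 16 were higher and 1 lower in the validation set (median 0.41). The 4 that passed upwards in both sets were *MMP27* (4.34 and 4.57), the neutrophil collagenase *MMP8* (3.14 and 3.22), the interstitial collagenase *MMP1* (2.19 and 2.63) and *MMP25* (2.0 and 2.18). *ADAMDEC1* fell in both (-2.24 and -5.30).

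None of the 4 other transglutaminases and cornified envelope genes tested passed in the experimental set (median -0.48), and in the validation set 1 was lower and none higher (median -0.34). That gene was *TGM1*, the transglutaminase of keratinocytes, at -0.95 (SE 0.37, adjusted p = 0.0426 in limma), which was well above background on 4 of 7 T0 and 3 of 13 T1 arrays. *TGM2* (-0.54, adjusted p = 0.136 in limma) and the plasma transglutaminase subunit *F13A1* (0.52, adjusted p = 0.347 in limma) did not pass there. Of 22 cytokines and factors that drive the acute phase, 9 were higher and 0 lower in the experimental set (median 1.0), and 14 were higher and 2 lower in the validation set (median 0.80). *IL1R2*, a decoy receptor that binds interleukin-1 without signalling, rose by 6.13 and 6.33, *FKBP5*, a target of the glucocorticoid receptor, by 3.60 and 3.87, and *CEBPB*, a transcription factor of acute phase genes, by 2.37 and 2.52 (validation and experimental), all past the threshold. *IL6*, *IL1B*, *TNF*, *OSM* and *IL10* were picked from this list after their values were seen. Of these, only *IL10* rose past the threshold, by 1.01 (validation) and 1.26 (experimental). *SOCS3* also rose past it in both sets (1.76 and 2.33). *IL6R* (1.10) and *STAT3* (0.87) did so for the validation horses only. Whether any of these genes drives the 9 genes was not tested. *IL6* had changes of 0.20 and 0.38 and *IL1B* of 0.05 and -0.05, neither past the threshold in either set. *TNF* and *OSM* were the 2 that fell in the validation set, with -0.87 (adjusted p = 0.0218 in limma) and -0.97 (adjusted p = 0.000659 in limma), and they did not pass in the experimental set (-0.49 and -0.59).

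Markers of the blood cells moved between T0 and T1 as well, and their part in the results above was not tested. Of 12 neutrophil markers, 7 were higher and 0 lower in the experimental set and 11 higher and 0 lower in the validation set, and the neutrophil score went from a range of 1.10 to 2.30 to one of 3.0 to 3.29 in the experimental horses. Of 6 genes of immature neutrophil granules tested, 5 were higher in both sets (median 3.32 and 3.23), and of 7 monocyte markers 5 were higher in both sets (median 2.16 and 1.69). T cell markers were lower for 3 of 9 and 8 of 9, B cell markers for 3 of 8 and 7 of 8, and NK cell markers for 3 of 6 and 4 of 6 (1 higher) in the experimental and the validation set. Eosinophil and basophil markers were lower for 3 of 5 and 3 of 4. For platelets 0 of 4 and 1 of 4 markers were higher, and for erythroid cells 1 of 3 in both sets, with none lower.

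The defining markers of liver and skin, tissues known for several of these genes, were checked too. Of the hepatocyte markers *ALB* was above background on 0 of 26 arrays, *APOB* on 2, *TTR* on 4 and *TF* on 5, while *AHSG*, *F2* and *SERPINC1* were above it on 23, 22 and 26, *APOA1* on 15 and *CYP2E1* on 13. Of 5 hepatocyte markers tested 2 were higher in both sets, *APOA1* and *SERPINC1* in the validation set. Of the keratinocyte markers *KRT5*, *KRT1*, *TP63* and *IVL* were above background on 0 of 26 arrays, *DSG3* on 5 and *KRT14* on 22. Of those tested, 1 of 2 was higher in the experimental set (*DSG3*) and 0 of 1 in the validation set.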

How the data were processed

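RNA of whole blood from 23 horses had been hybridised in 1 colour to 26 equine arrays (Agilent), which were grouped by the set, animal and time of their labels. The deposited scanner files hold an intensity per spot that the authors made with Feature Extraction 10.7.3.1, which subtracted a background and removed trends, and arrays were not yet brought to one scale. In the deposited series table the authors give log2 values with nearly equal quantiles, for which limma is named in the submitters' processing notes. Its background treatment was not given in the sources used here, and it served as an alternative.

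Control spots and 386 outlier spots were left out, 431 saturated spots (all on the T1 array of horse 34) were kept, and 384 probes spotted more than once were averaged. Levels are the log2 processed signal minus the array's 75th percentile, and the brightest probe stood for a gene name. A gene name was tested where at least 3 arrays of the comparison (7 in the validation set) held it well above background, using limma 3.58.1 (statmod 1.5.0) in R 4.3.3, with Benjamini-Hochberg adjustment over all of them at 0.05. The horse was a fixed block in the experimental set and a random block in the fit of all arrays (consensus correlation -0.0689). The experimental pairs come from the labels, and the deviations of a horse's arrays from the group means correlated across genes with r of -0.009, 0.21 and 0.19. Correlations over horses used 100000 permutations (Python 3.11.15, numpy 2.4.6, scipy 1.17.1), adjusted over 9 genes or 36 pairs. Folds against the detection limit set the mean of the bright group against the higher of a dim probe's own level and the lowest level well above background on each array. They are estimates and no lower limits. Precision is limited by the number of arrays.

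The members, the 6 context lists, the 11 marker lists and the tests were chosen with earlier results of these data known. Named were all members, *SAA*, the 3 closest gene names by r for each member, and from each context list up to 3 genes each way that passed in the validation set with the same direction in all 3 experimental horses. *TGM1*, *TGM2*, *F13A1*, *MMP25*, *IL6*, *IL10*, *IL1B*, *TNF*, *OSM*, *SOCS3*, *IL6R*, *STAT3* and LOC100065191 were added after their values were seen. The scripts were tested on simulated data. Alternatives were normexp (offset 50) with quantile normalization, quantile normalization, the series values, other filters, the mean of the probes, other blocks and terms, and horses left out. The 75th percentiles lay between 8.74 and 9.76, and the arrays on 18 slides scanned on 8 days.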

Additional observations from a re-analysis of the deposited data

Results flagged for a closer look

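Among 10 groups of T0 levels examined, those of the 9 genes and of *SAA* in the 7 validation horses, the *TGM3* level of horse 47 was far from the others. It was 1.58, the next horse was at -1.83, and the gap was 0.607 of the whole range, above Dixon's critical value of 0.568 for 7 samples. Chance flags about 1 in 20 such groups, and the 10 groups share the same horses. The validation change of *TGM3* was 4.26 with this horse and 4.90 without it.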

How the results depend on the processing

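Without a filter on dim probes the experimental set had 62 calls over all gene names (1799 as reported) and 3 of the 9 genes passed. A filter on every array gave 2842 calls and a fit of all 26 arrays 2986. The share of experimental calls that were higher at T1, 60.9% as reported, was 48.1%, 49.7% and 47.7% with normexp and quantile normalization, quantile normalization and the series values. Left out in turn, the experimental horses gave between 173 (without horse 2) and 2975 calls (without horse 41), 289 without horse 32, and 6 to 8 of the 9 genes passed. Without the replicate block of the horse there were 1795 calls and 8 of the 9 genes passed, and without it 0 gene names passed in the comparison between the sets, as with it. The comparison of females and geldings had 7 calls as reported and 4 with the filter on every array. In the validation set calls lay within 1.5 times those reported under every alternative run, and of the 9 genes 7 passed with the filter on every array, which tested only 7, and 8 with normexp, the series values or scan day as a term, *PI3* being lost. No change of the 9 genes turned its direction under the alternatives run. The series values gave *SAA1*, *PTX3* and *PI3* smaller changes (1.06, 1.65 and 0.51 in the experimental set and 0.92, 1.19 and 0.60 in the validation set), with the *PI3* calls and the experimental *SAA1* call lost. *TIMP2* passed in the experimental set in 4 of 11 alternatives, and in the fit of all 26 arrays it gained the call that *PI3* lost. Among pairs of genes, 5 to 7 passed by r, and *SERPINB1* with *TIMP1* did not with quantile normalization (r = 0.56) or the series values (r = 0.58), nor *PTX3* with *PI3* without horse 34 (r = 0.70). The cause of these shifts was not tested. For dim probes, the nearness of the signal to background limits how well a fold is known.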
